A study of Homo sapiens with 4 samples.

Results

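The genes described here are 31 targets of the tumour suppressor p53, grouped by what their products do: 10 act in cell death, 5 in DNA repair, 5 in feedback on p53 itself, 5 in metabolism and 6 in growth control. They were taken from the tables by gene name, from a list drawn up with earlier results of these data known, and all 31 were found among the 29655 distinct gene names of the count tables, 30 of them under their current symbol and TIGAR under its older name C12orf5. CDKN1A was left out of the set. The cells were UMSCC74B, an established line of head and neck squamous cell carcinoma (HNSCC), labelled wild type in genotype. Per the labels they were transfected with a plasmid for a control shRNA or for an shRNA against PRMT5, the arginine methyltransferase that places symmetric dimethylation on its substrates, and were grown without antibiotic for 72 h before total RNA was sequenced. The methods of the study describe lentiviral delivery of shRNA instead. There were 2 control libraries and 2 libraries labelled PRMT5 KD, for knockdown. All came from 1 cell line, and these methods name no selection of transfected cells. Nothing states that the libraries came from separate cultures, so p-values measure only the spread between these samples, which may be technical.

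p53 is a transcription factor that is held at a low level by the ubiquitin ligase MDM2 and accumulates after DNA damage and other stresses. Its targets include genes that arrest the cell cycle, repair DNA, start cell death and adjust metabolism, and several of them, MDM2 among them, limit p53 in return. Which targets move together differs between cell types and stresses, and many targets also answer to other transcription factors. PRMT5 can methylate p53 and also acts on histones and on the splicing machinery.

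p53 binds DNA as a tetramer at an element of 20 bases built from 2 decamers, each with a core of 4 bases. The genome sequence (GRCh38) was searched from 2500 bases before to 2500 bases after the start of each gene's canonical transcript for the p53 response element consensus without a spacer, with the C and the G of each core required and up to 2 mismatches at the other 16 positions. The consensus is its own reverse complement, so both strands were searched at once. Such an element was found for 16 of the 31 targets (51.6%) and for 453 of all 11896 genes tested (3.81%). The 31 were chosen as p53 targets, so a higher share among them tests nothing about these data. With no mismatch allowed it was found for 2 targets, PLK2 and ZMAT3, and for 9 of all genes (0.0757%). The 9 sequences shown are a selection in which 8 belong to called targets, so they do not show how often targets with an element were called. GADD45A was not called. Elements with 1 mismatch were also found for CCNG1, EDA2R and RRM2B, which were not called and are not shown. They are written 5′ to 3′ on the strand of the gene, with the core of each decamer in capitals.
PLK2: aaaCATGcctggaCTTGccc
ZMAT3: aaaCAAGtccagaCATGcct
DDB2: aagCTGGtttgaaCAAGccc
GADD45A: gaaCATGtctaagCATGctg
MDM2: ggtCAAGttcagaCACGttc
PMAIP1: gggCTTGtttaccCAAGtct
AEN: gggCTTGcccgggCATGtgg
GDF15: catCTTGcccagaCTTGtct
BTG2: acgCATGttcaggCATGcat
The PLK2 element was at chr5:58462274-58462293 on the minus strand, upstream of the canonical start, and the ZMAT3 element was in intron 1 at chr3:179070188-179070207 on the minus strand. Each of the DDB2 and GADD45A elements had 1 mismatch. The DDB2 element spanned the canonical transcript start at chr11:47214969-47214988, and the GADD45A element was in intron 3 at chr1:67686775-67686794, both on the plus strand. Each of the remaining 5 had 2 mismatches and was on the plus strand. MDM2 held its element in intron 1 at chr12:68808923-68808942. The other 4 were upstream of the canonical start, PMAIP1 at chr18:59899549-59899568, AEN at chr15:88621306-88621325, GDF15 at chr19:18385308-18385327 and BTG2 at chr1:203303642-203303661. The annotated spans of GDF15 and DDB2 begin before their canonical starts, so both elements lie inside these spans. A match is a description of the letters and not a measured binding site.

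Rows whose gene names had turned into dates were dropped. The remaining rows held 52185289 and 65964558 counts for the control libraries and 64233361 and 55328869 for the libraries labelled PRMT5 KD. Between 71.5% and 81.4% of them fell on protein-coding genes, the lowest share being that of the library labelled PRMT5 KD replicate 1. Levels below are CPM, the counts of a gene relative to all protein-coding counts tested in its library, scaled by the trimmed mean of M values (TMM). A gene was called when the adjusted p (false discovery rate, FDR, from the quasi-likelihood test of edgeR across 11896 protein-coding genes) was under 0.05 and the absolute log2 fold change was at least 0.5. PRMT5, the targeted gene, was at 94.3 and 84.2 CPM in the control libraries and at 132 and 150 CPM in those labelled PRMT5 KD. Its RNA was therefore higher in the libraries labelled as its knockdown (log2 fold change 0.66, SE 0.12, FDR 0.00543), and every direction below is that of the labels. The study reports that PRMT5 was silenced at the protein level by immunoblot, which was not analysed here. Of 7 markers of squamous epithelium, 4 were at or near 0. KRT5 had 0 to 4 counts, KRT6A 0 to 1 and CDH1 2 to 9 in the 4 libraries. KRT14 had 0 and 0 counts in control and 11 and 22 in the others. EPCAM had 29 to 48 counts, KRT17 had 5 and 6 in control and 53 and 71 in the others, and TP63 had 218 and 330 in control and 83 and 144 in the others. The 7 summed to 6.80 and 7.39 CPM in control and to 3.97 and 6.13 CPM in the others, most of it TP63 in control. A fibroblast list of COL1A1, COL1A2, PDGFRB and DCN summed to 372 and 431 CPM in the control libraries and to 61.8 and 70.7 CPM in the others, with all 4 genes called lower. Of the leukocyte list, CD3E was at 0 counts in every library and PTPRC at 0 to 5, while CD68, which is not limited to leukocytes, made up nearly all of a sum of 94.7 and 113 CPM in control and 152 and 170 CPM in the others. An endothelial list of PECAM1 and VWF summed to 9.98 and 13.9 CPM in control and to 1.01 and 0.460 CPM in the others. The part of these marker differences in the results below was not tested. In bulk RNA, fewer cells of a type and less RNA per cell cannot be told apart. The cells are described as squamous carcinoma, yet 4 of 7 squamous markers were at or near 0 and the fibroblast genes were expressed. Whether the line is as described was not tested.

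Target genes of p53 moved in both directions. Of the 31, 9 were called higher in the libraries labelled PRMT5 KD (29.0%) and 5 lower (16.1%), while 17 were not called. Among all genes tested 21.2% were called higher and 24.4% lower. The values of both groups did not overlap for 22 of the 31 targets (71.0%), against 80.5% of all genes tested. The median log2 fold change of the targets was 0.16, and that of all genes was -0.01. Without control replicate 2 fewer genes were called in either direction, both among the targets and among all genes. The median log2 fold change was then 0.12 for the targets and -0.01 for all genes. The 9 called higher were PMAIP1, AEN, TRIAP1, DDB2, MDM2, PPM1D, SESN1, BTG2 and PLK2, and the 5 called lower were TNFRSF10B, TP53INP1, MDM4, ZMAT3 and GDF15. In no function class were all genes called in 1 direction, and the apoptosis, feedback and growth control classes each held genes called in opposite directions.

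**Figure D1:**
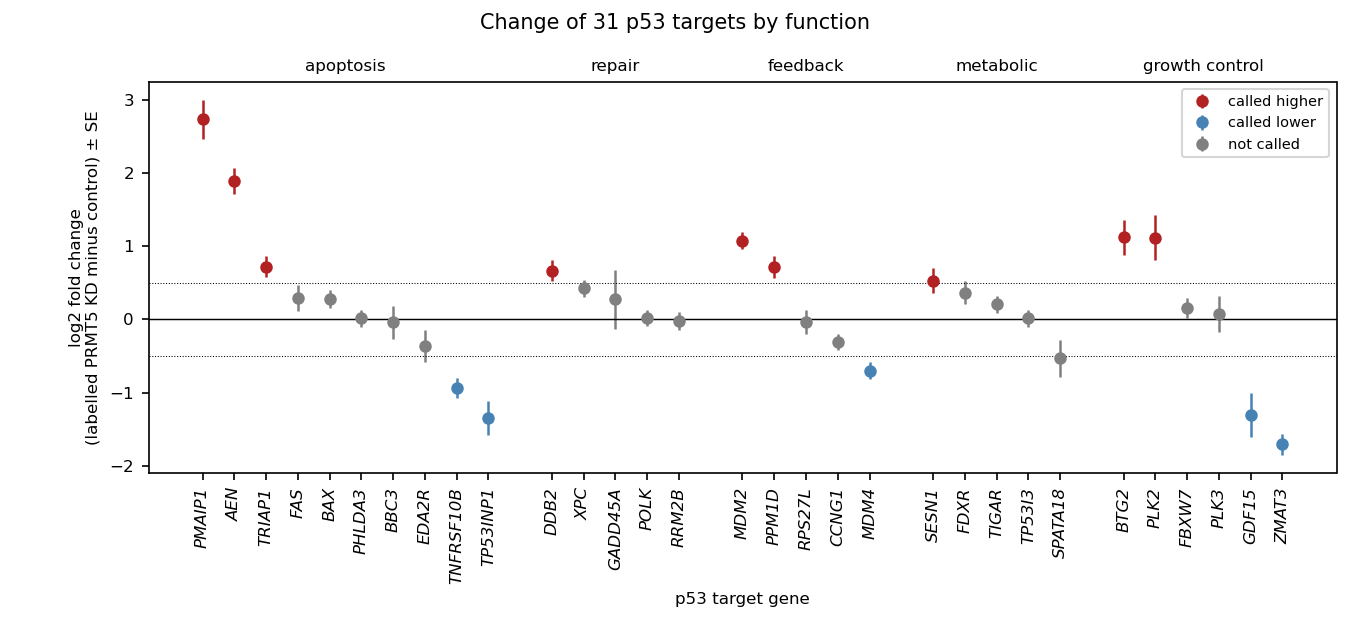
Log2 fold change of each of the 31 targets (libraries labelled PRMT5 KD minus control, vertical axis), grouped by function along the horizontal axis, with bars of 1 SE from the edgeR fit and dotted lines at 0.5 and -0.5. PMAIP1 is the highest point at 2.73 and ZMAT3 the lowest at -1.71, and the repair and metabolic classes span the narrowest ranges.

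Levels per length spread widely among the targets. Per kilobase of canonical transcript, the control mean ran from 0.717 CPM for BTG2 to 131 CPM for PLK2, with a median of 11.1 CPM over the 31 targets, and the median of the libraries labelled PRMT5 KD was 11.7 CPM. After PLK2 the highest control means per kilobase were those of the secreted factor GDF15 at 116 CPM and the death receptor TNFRSF10B at 96.7 CPM, both called lower, at 47.1 and 50.7 CPM. PMAIP1 stood at 26.8 CPM per kilobase in control and at 178 CPM in those labelled PRMT5 KD, where only PLK2 at 285 CPM was higher among the targets. At the low end, SPATA18 and EDA2R were at 1.09 and 1.10 CPM per kilobase in control.

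**Figure D2:**
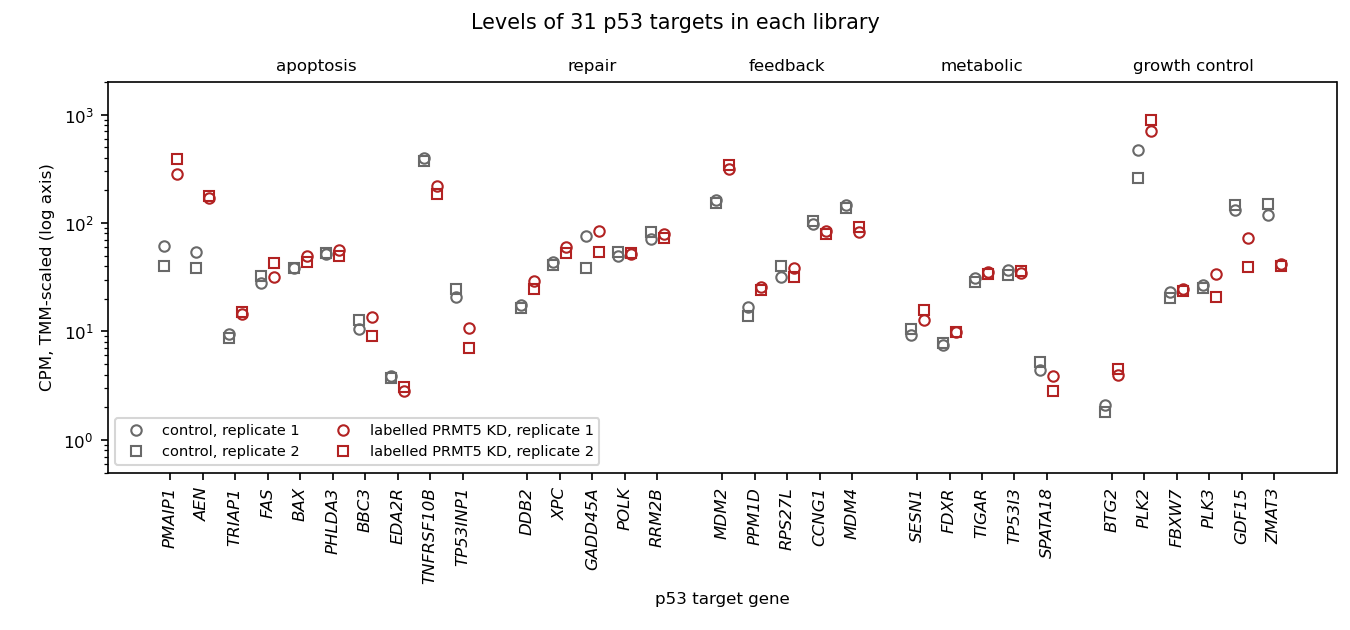
TMM-scaled CPM (vertical log axis) of each target in each of the 4 libraries, with the targets grouped by function along the horizontal axis, control libraries in grey and libraries labelled PRMT5 KD in red. The red points of PMAIP1 lie at 285 and 392 CPM, above its grey points at 61.5 and 40.4 CPM, and those of ZMAT3 lie below its grey points.

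Among the death genes, the BH3-only gene PMAIP1 rose most, and the death receptor gene TNFRSF10B fell. PMAIP1 encodes NOXA, which blocks the survival protein MCL1, and lies on chromosome 18 from 59899996 to 59904305 on the plus strand (GRCh38). It was at 61.5 and 40.4 CPM in the control libraries and at 285 and 392 CPM in those labelled PRMT5 KD. Both of the latter were far above both control values, with means of 50.9 ± 15.0 and 339 ± 75.6 CPM (SD, n = 2 each). The change was 6.65-fold (log2 fold change 2.73, SE 0.27, FDR 0.000974), the largest in either direction among the 31.

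AEN, which encodes a nuclease that digests DNA during apoptosis, lies on chromosome 15 from 88621337 to 88632281 on the plus strand. It was at 54.4 and 38.8 CPM in control and at 168 and 177 CPM in those labelled PRMT5 KD, without overlap, a change of 3.70-fold (log2 fold change 1.89, SE 0.18, FDR 0.000572). TRIAP1, on chromosome 12 from 120443964 to 120446384 on the minus strand, encodes a small mitochondrial protein that protects from apoptosis. It was at 9.40 and 8.61 CPM in control and at 14.5 and 15.0 CPM in the others. Both groups were tight and apart (log2 fold change 0.72, SE 0.14, FDR 0.00695), but the call was lost without control replicate 2 (0.66, FDR 0.0734) and after correction for exon length and GC content (0.25, FDR 0.179). PMAIP1 and AEN kept their calls in both of these fits and without each of the other libraries.

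TNFRSF10B, a receptor for the death ligand TRAIL, was at 400 and 374 CPM in control and at 219 and 186 CPM in those labelled PRMT5 KD. It lies on chromosome 8 from 23020133 to 23069031 on the minus strand. Its lowest control value was well above the highest of the others (log2 fold change -0.93, SE 0.14, FDR 0.00212). TP53INP1, a stress-induced nuclear protein that acts in cell death and autophagy, was at 20.8 and 24.7 CPM in control and at 10.8 and 7.03 CPM in the others. It lies on chromosome 8 from 94925972 to 94949378 on the minus strand, and it also fell without overlap (log2 fold change -1.35, SE 0.23, FDR 0.00410).

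The other 5 death genes were not called. BAX, which forms pores in the mitochondrial outer membrane, was at 38.0 and 38.3 CPM in control and at 49.4 and 43.3 CPM in those labelled PRMT5 KD (log2 fold change 0.28, SE 0.12, FDR 0.0890). BBC3, which encodes the BH3-only protein PUMA, was at 10.5 and 12.8 CPM in control and at 13.5 and 9.14 CPM in the others. The BAX groups were apart by less than the fold threshold, while those of BBC3 overlapped fully (log2 fold change -0.04, FDR 0.899). The death receptor gene FAS was at 28.2 and 32.7 CPM in control and at 31.8 and 42.9 CPM in the others, with overlap (log2 fold change 0.29, SE 0.17, FDR 0.194). FAS was called higher after the length and GC correction (0.73, FDR 0.0192) and without the library labelled PRMT5 KD replicate 1 (0.53, FDR 0.0125). Its annotated exons are the longest of the 31 targets, 29313 bases in all, and they overlap those of STAMBPL1 on the same strand, so its counts are uncertain. EDA2R, a receptor of the same superfamily, was at 3.89 and 3.72 CPM in control and at 2.84 and 3.09 CPM in the others (log2 fold change -0.36, FDR 0.208). PHLDA3, an inhibitor of AKT, was at 51.9 and 52.7 CPM in control and at 55.9 and 49.7 CPM in the others, with overlap (log2 fold change 0.01, FDR 0.929).

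Of the 5 repair genes, DDB2 was called higher and none was called lower. DDB2 and XPC both encode proteins that recognise DNA damage for nucleotide excision repair. DDB2, on chromosome 11 from 47214465 to 47239217 on the plus strand, was at 17.7 and 16.3 CPM in control and at 29.1 and 24.7 CPM in those labelled PRMT5 KD. The groups did not overlap (log2 fold change 0.67, SE 0.14, FDR 0.00892). Without control replicate 1 its FDR was 0.0534, and without control replicate 2 it was 0.0879. XPC was at 43.9 and 40.8 CPM in control and at 60.2 and 53.3 CPM in the others, also apart. Its FDR of 0.0245 passed while its log2 fold change of 0.42 did not reach the fold threshold, and it was called without the library labelled PRMT5 KD replicate 2 (0.51, FDR 0.00966).

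POLK, a polymerase that copies past damaged bases, was at 49.9 and 53.5 CPM in control and at 51.2 and 53.3 CPM in the others (log2 fold change 0.02, FDR 0.914). RRM2B, the p53-inducible subunit of ribonucleotide reductase, was at 71.2 and 81.9 CPM in control and at 78.4 and 72.7 CPM in the others (log2 fold change -0.02, FDR 0.906). Both genes had overlapping groups. GADD45A, which binds PCNA and acts in growth arrest and repair, was at 76.4 and 38.1 CPM in control and at 84.0 and 54.2 CPM in the others. Its 2 control libraries differed 2.0-fold from each other, and no difference between the groups was detectable against that spread (log2 fold change 0.27, SE 0.40, FDR 0.597).

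The feedback genes split. MDM2 rose, MDM4 fell, and the phosphatase gene PPM1D rose. MDM2, on chromosome 12 from 68808177 to 68845544 on the plus strand, was at 162 and 153 CPM in control and at 317 and 345 CPM in those labelled PRMT5 KD. The groups stood far apart, with means of 157 ± 6.51 and 331 ± 19.8 CPM (SD, n = 2 each) and a change of 2.11-fold (log2 fold change 1.08, SE 0.12, FDR 0.000842). MDM4, the MDM2 relative that binds p53 and masks its activation domain, was at 147 and 138 CPM in control and at 83.2 and 92.2 CPM in the others. It lies on chromosome 1 from 204516379 to 204558120 on the plus strand, and its groups were apart in the opposite direction (log2 fold change -0.70, SE 0.11, FDR 0.00318). Both calls were kept without each of the 4 libraries in turn.

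PPM1D encodes the phosphatase WIP1, which removes activating phosphates from p53 and the damage kinases. It lies on chromosome 17 from 60600193 to 60666280 on the plus strand and was at 16.7 and 13.7 CPM in control and at 25.7 and 24.2 CPM in the others. Its groups did not overlap (log2 fold change 0.72, SE 0.15, FDR 0.00790), and the call was lost without control replicate 2 (0.59, FDR 0.0769). CCNG1, a cyclin that brings a phosphatase to MDM2, was at 97.4 and 105 CPM in control and at 84.1 and 79.7 CPM in the others. The groups were apart but not called (log2 fold change -0.31, FDR 0.0526), and CCNG1 was called lower after the length and GC correction (-0.52, FDR 0.00871). RPS27L, a ribosomal protein paralog that binds MDM2, was at 31.9 and 40.3 CPM in control and at 38.7 and 31.9 CPM in the others, with overlap (log2 fold change -0.03, FDR 0.886).

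In the metabolic class only SESN1 was called, and the level of the other 4 was not shown to differ. SESN1 encodes a sestrin, which restrains mTORC1, and lies on chromosome 6 from 108984309 to 109094846 on the minus strand. It was at 9.19 and 10.5 CPM in control and at 12.7 and 15.7 CPM in those labelled PRMT5 KD, without overlap (log2 fold change 0.53, SE 0.17, FDR 0.0386). This call was lost without control replicate 1 (0.44, FDR 0.201), without control replicate 2 (0.63, FDR 0.114) and without the library labelled PRMT5 KD replicate 2 (0.37, FDR 0.113). TIGAR, a phosphatase that lowers glycolytic flux, was at 30.8 and 28.7 CPM in control and at 35.3 and 33.5 CPM in the others (log2 fold change 0.21, FDR 0.175). FDXR, the reductase that feeds electrons to mitochondrial ferredoxin, was at 7.43 and 7.81 CPM in control and at 9.83 and 9.83 CPM in the others (log2 fold change 0.37, FDR 0.0856). The groups of TIGAR and FDXR did not overlap, although neither passed the test. The exons of TIGAR overlap a protein-coding gene on the same strand, so its counts are uncertain.

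TP53I3, a quinone oxidoreductase, was at 36.9 and 33.0 CPM in control and at 34.8 and 35.7 CPM in the others, with overlap (log2 fold change 0.01, FDR 0.938). SPATA18, which acts in mitochondrial quality control, was at 4.45 and 5.26 CPM in control and at 3.87 and 2.84 CPM in the others. Its groups were apart by a small margin (log2 fold change -0.53, SE 0.25, FDR 0.111), and it was called lower without the library labelled PRMT5 KD replicate 1 (-0.74, FDR 0.0377).

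The growth control genes held the lowest value of the set and both elements without a mismatch. ZMAT3, an RNA-binding zinc finger protein that controls splicing and RNA stability, was at 119 and 148 CPM in control and at 41.8 and 40.0 CPM in those labelled PRMT5 KD. It lies on chromosome 3 from 178960121 to 179072215 on the minus strand. The groups were far apart, and the level was 3.26-fold lower (log2 fold change -1.71, SE 0.14, FDR 0.000414), a call kept without each of the 4 libraries in turn. PLK2, a polo-like kinase with a role in centriole duplication, was at 471 and 260 CPM in control and at 701 and 885 CPM in the others. It lies on chromosome 5 from 58453982 to 58460139 on the minus strand. The groups did not overlap, yet the control libraries differed 1.82-fold from each other (log2 fold change 1.12, SE 0.31, FDR 0.0283). The PLK2 call was lost without control replicate 2 (0.76, FDR 0.0816) and without replicate 1 or 2 of the libraries labelled PRMT5 KD (1.31, FDR 0.100, and 0.94, FDR 0.207). Thus the 2 targets with an element of no mismatch changed in opposite directions.

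BTG2, an antiproliferative protein that recruits a deadenylase, lies on chromosome 1 from 203305491 to 203309602 on the plus strand. It had 83 and 91 counts in control and 190 and 216 counts in the others, or 2.10 and 1.82 CPM against 3.99 and 4.52 CPM. The groups were apart (log2 fold change 1.12, SE 0.24, FDR 0.00846), and the FDR was 0.0580 without control replicate 1 and 0.0965 without control replicate 2. GDF15, a secreted factor of the TGF-beta superfamily, lies on chromosome 19 from 18374731 to 18389176 on the plus strand and was at 131 and 148 CPM in control and at 73.3 and 39.7 CPM in the others. It fell without overlap (log2 fold change -1.30, SE 0.30, FDR 0.0182), with an FDR of 0.0529 without control replicate 1 and 0.0839 without control replicate 2. PLK3, a stress-responsive polo-like kinase, was at 27.0 and 24.9 CPM in control and at 34.0 and 20.7 CPM in the others, with overlap (log2 fold change 0.08, FDR 0.810). FBXW7, the subunit that picks substrates such as cyclin E for a ubiquitin ligase, was at 23.0 and 20.1 CPM in control and at 24.4 and 23.6 CPM in the others (log2 fold change 0.16, FDR 0.347).

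Side by side, the median log2 fold change was 0.15 for the 10 apoptosis genes, 0.27 for the 5 repair genes, -0.03 for the 5 feedback genes, 0.21 for the 5 metabolic genes and 0.12 for the 6 growth control genes. The range was widest for apoptosis (-1.35 to 2.73) and growth control (-1.71 to 1.12) and narrowest for repair (-0.02 to 0.67). Called higher and lower were 3 and 2 apoptosis genes, 1 and 0 repair genes, 2 and 1 feedback genes, 1 and 0 metabolic genes, and 2 and 2 growth control genes. With so few genes a class, these shares are counts only, and no difference between classes was tested.

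**Figure D3:**
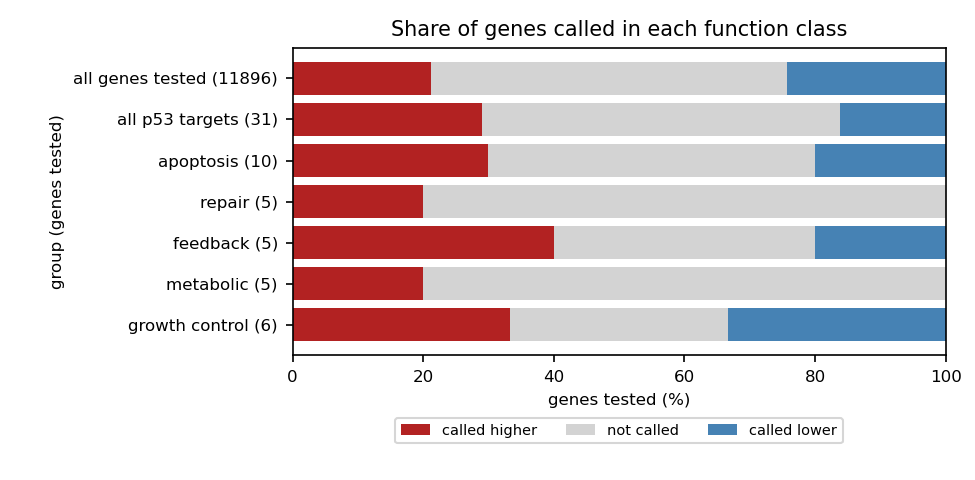
Share of genes called higher, lower or not called (horizontal axis, % of genes tested) in each function class, among all 31 targets and among all genes tested, with the number of genes in parentheses. The repair and metabolic bars show 4 of 5 genes not called and none lower, while all genes tested show 21.2% higher and 24.4% lower.

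Holding an element in the searched window went with calls in both directions. Of the 16 targets with an element, 6 were called higher, 3 lower and 7 not, and their median log2 fold change was 0.28. Of the 15 without one, 3 were called higher, 2 lower and 10 not, with a median of 0.08. The 7 targets with at most 1 mismatch had 2 called higher, 1 lower and 4 not, with a median of -0.02, so the order of the medians turned with the stricter match. Of all genes tested, 21.2% were called higher and 24.4% lower. By function, an element was found for 6 of 10 apoptosis, 3 of 5 repair, 2 of 5 feedback, 1 of 5 metabolic and 4 of 6 growth control genes. Targets whose letters did not match in this window included MDM4, PPM1D, TRIAP1, SESN1 and TP53INP1.

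Of 27 genes of the p53 network (relatives, kinases, acetylases and other modifiers, PRMT5 among them), 25 were tested, with a median log2 fold change of -0.05. Of these, 6 were called higher (24.0%) and 2 lower (8.0%), against 21.2% and 24.4% of all genes tested. HIPK2 narrowly missed a call (log2 fold change -0.97, FDR 0.0525). Under DESeq2 3 genes of the list were called lower, and with no fold threshold 4 were. PRMT5, the targeted gene, was among those called higher. The checkpoint kinase CHEK2 was at 11.4 and 11.6 CPM in control and at 21.4 and 28.8 CPM in the others (log2 fold change 1.13, FDR 0.00281), and CHEK1 at 25.7 and 23.5 against 45.0 and 53.4 CPM (1.00, FDR 0.00161). ATM, the kinase that answers to double-strand breaks, was at 394 and 428 CPM in control and at 192 and 187 CPM in the others (log2 fold change -1.12, FDR 0.000787). TP63, the p53 relative of squamous epithelium, was at 5.51 and 6.59 CPM in control and at 1.74 and 3.01 CPM in the others (log2 fold change -1.35, FDR 0.0110). So both CHEK genes rose while ATM and TP63 fell. After the length and GC correction CHEK2 was at 1.04, CHEK1 at 0.91, ATM at -0.65 and TP63 at -1.31, and each was still called. The annotated exons of ATM are 39184 bases in all. Of the network list 5 genes were called higher and 2 lower after that correction. Leaving out 1 library, TP63 ran from -1.79 to -0.98. Without control replicate 2 fewer genes of the list were called, as among all genes. WRAP53, which encodes a telomerase protein of Cajal bodies, was at 11.2 and 10.7 CPM in control and at 20.8 and 23.0 CPM in the others (log2 fold change 1.00, FDR 0.00169). Whether the counting used strand is not given in the sources used here, so this value is uncertain. CHEK1 was named beside CHEK2 after its values were seen. CDKN2A, which encodes the MDM2 inhibitor ARF, had 0 counts in every library, which allows up to 3 counts per library, and it was not tested.

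Of 28 further p53 targets listed beside the 31, 24 were tested, and their median log2 fold change was 0.05. Among them, 7 were called higher (29.2%) and 4 lower (16.7%), against 21.2% and 24.4% of all genes tested. After the length and GC correction 5 were called higher and 5 lower, with a median of -0.01. Leaving out control replicate 1 or 2, fewer were called in both directions, as among all genes. Those called higher then dropped by a larger share in this list than among all genes. Leaving out replicate 1 or 2 of the libraries labelled PRMT5 KD, more were called higher. The median ran from -0.02 to 0.06 leaving out 1 library. PCNA, the replication clamp, was at 59.6 and 62.7 CPM in control and at 239 and 257 CPM in those labelled PRMT5 KD (log2 fold change 2.02, FDR 0.000208). TRIM22, an antiviral ubiquitin ligase that interferon also induces, was at 141 and 106 CPM in control and at 246 and 399 CPM in the others (log2 fold change 1.39, FDR 0.00938). Their groups did not overlap. DRAM1, a lysosomal membrane protein of autophagy, was at 691 and 588 CPM in control and at 259 and 142 CPM in the others (log2 fold change -1.67, FDR 0.00720), and the glutathione peroxidase gene GPX1 was at 140 and 169 against 68.2 and 68.9 CPM (-1.17, FDR 0.000831).

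Across all genes tested, the log2 fold change fell by 0.20 for each SD of log2 exon length. Correction for length and GC content changed the call of 3 of the 31 targets, with TRIAP1 lost and FAS and CCNG1 gained. PMAIP1 went from 2.73 to 2.41, ZMAT3 from -1.71 to -1.53 and MDM4 from -0.70 to -0.51, while AEN stayed at 1.89 and MDM2 went from 1.08 to 1.15. The median of the 31 was 0.21 after the correction.

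**Figure D4:**
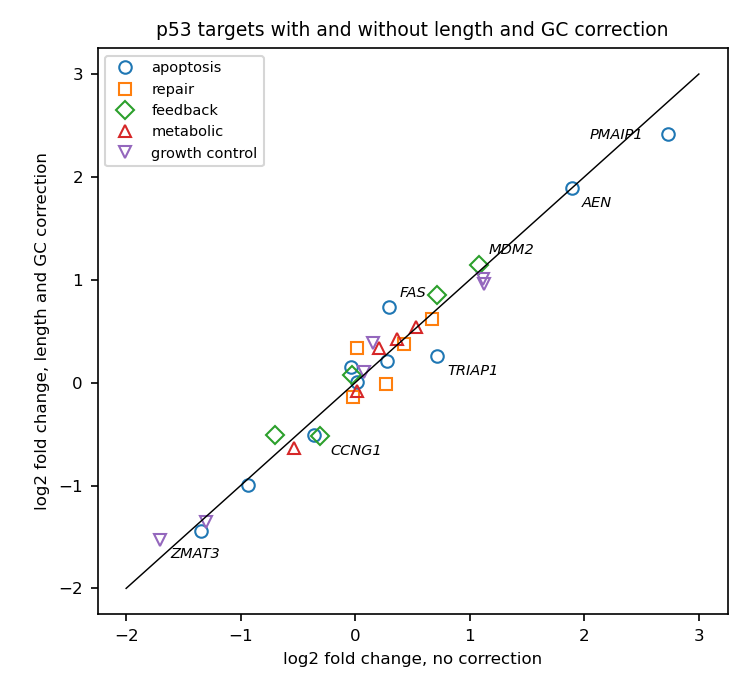
Log2 fold change of each target without (horizontal axis) and with (vertical axis) correction for exon length and GC content, with the line of equal values and a symbol for each function class. Most targets lie near the line, TRIAP1 lies below it at 0.72 and 0.25, and FAS lies above it at 0.29 and 0.73.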

How the data were processed

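Per the labels, RNA libraries were made with a directional kit. The authors deposited 1 table of estimated counts per library, which need not be whole. The submitters' processing notes name FastQC, Trim Galore, STAR, Salmon and DESeq2 with build GRCh38, with no versions given, while the study's methods describe counting with FeatureCounts, and which of these made the tables is not given in the sources used here. Whether counting used strand is likewise not given, so the values of 8 targets whose exons overlap a protein-coding gene on the opposite strand (FAS, MDM2, PLK3, POLK, TNFRSF10B, TP53I3, TP53INP1 and XPC) are uncertain. Rows of the same name were summed, 28 names turned into dates (0.150% to 0.161% of counts) were dropped, and counts were rounded. The 18919 protein-coding names were filtered at 0.5 RPKM over union exons, which left 11896. The main test was the edgeR (4.0.16, R 4.3.3) quasi-likelihood test with TMM factors (0.935 to 1.09) and Benjamini-Hochberg adjustment, at an FDR of 0.05 and a log2 fold change of 0.5. The biological coefficient of variation was 0.142. Replicates differed beyond sampling noise (chi-square per degree of freedom 52.3 in control and 127 in PRMT5 KD). The fit was tested on simulated counts in which few genes changed, equally in both directions. That test does not cover changes as widespread as those called here. The members and lists here were chosen with earlier results of these data known. All 31 targets and PRMT5 are named, with up to 4 called genes of largest change from each other list, and genes needed for counts of 5 or fewer, plus CHEK1. A further gene of that rule is not reported here. Alternatives were DESeq2 1.42.0, other scalings and filters, a replicate block, length and GC correction, and leaving out each library. An exact permutation of 2 against 2 libraries cannot reach 0.05 and was not used. Depth limits small differences in genes with few counts, such as BTG2.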

Additional observations from a re-analysis of the deposited data

How the results depend on the processing

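Of the 14 called targets, all 14 kept their call under DESeq2, total counts, RLE and upper quartile factors, both other filters, all gene names, non-robust dispersion and the fit with the replicate number as a block. The numbers share no stated source, and the deviations of same-numbered libraries correlated at -0.10, so the pairing was also crossed, a choice made after seeing the data. With the block no target changed its call, so 9 targets were called higher and 5 lower, and 5184 genes in all against 5421. Crossed, 5487 genes were called, SESN1 was lost (FDR 0.0512) and metabolic genes called higher numbered 0. At a fold threshold of 1, 5 targets were called higher and 3 lower (all genes 1032 and 1529), with 1 apoptosis gene lower, 0 repair and 0 metabolic genes higher, and 1 feedback gene higher and 0 lower. With no fold threshold 2 repair genes were called higher. With total counts the median of all genes was 0.17, that of the targets 0.33, and the share of calls that were higher 61.5% against 46.5%. There 2 repair and 2 metabolic genes were called higher, XPC (0.60) and FDXR (0.55) being gained. Length and GC correction gave 2 feedback genes lower, with or without the block.

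Leaving out 1 library gave 3 to 9 targets higher and 4 to 6 lower, 1366 to 2762 genes higher and 1748 to 2961 lower, 0 to 2 repair genes higher, 1 to 2 feedback genes higher, 0 to 1 metabolic genes higher and 0 to 1 lower. The lone library of a group was then assumed to vary like the other group. Leaving out control replicate 2 cost the most calls, both among the targets and among all genes. Some uncalled targets changed sign, all of them near 0 in the main fit except GADD45A at 0.27. BBC3 was 0.13 with total counts, 0.0245 with filterByExpr, 0.0141 with no filter, 0.15 with length and GC correction, 0.14 with the block added, and -0.32 to 0.22 leaving out 1 library. RRM2B was 0.16, 0.0451 and 0.0333 under the first 3 of these, 0.0016 with all gene names, and -0.11 to 0.09. RPS27L was 0.14, 0.0329, 0.0213, 0.0716 and 0.0765 in the order of BBC3, and -0.18 to 0.15. TP53I3 was -0.0815 with length and GC correction and -0.0784 with the block, and -0.0615 to 0.10. GADD45A was -0.0106 with the correction and -0.14 to 0.86. Leaving out 1 library, POLK ran from -0.0263 to 0.0769, PHLDA3 from -0.0412 to 0.10 and PLK3 from -0.29 to 0.39. The cause of these changes was not tested. Groups of 2 limit every value here.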
